A study of Mus musculus with 6 samples.

Results

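The genes described here are 40 genes of hepatic stellate cells and of the extracellular matrix, chosen by symbol from 18253 gene symbols listed in mouse liver RNA-seq libraries. They comprise 5 fibrillar collagens, 7 network, beaded and other collagens, 4 proteoglycans, 11 matrix glycoproteins, 8 matrix enzymes and inhibitors, and 5 contractile and stellate cell markers. The livers came from C57BL/6 mice labelled as postnatal day 21. In 3 libraries the mice had received ANIT (alpha-naphthylisothiocyanate), a bile duct toxicant that causes cholestasis in rodents. In the other 3 libraries they had received ANIT and celastrol, a plant triterpenoid, and these are called the celastrol group below. The labels give 5 days of treatment for both groups. All 6 libraries are from ANIT-treated mice, with no untreated group, so the values compare celastrol with ANIT alone and neither with normal liver. Whether each library is a separate animal is not stated, so p-values here measure only the spread between samples, which may be technical.

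Hepatic stellate cells are pericytes of the liver sinusoid that store vitamin A. During liver injury they, together with portal fibroblasts, can become contractile myofibroblasts that lay down fibrillar collagens, and this scar matrix is the basis of fibrosis. The matrix around sinusoids, vessels and ducts also holds basement membrane proteins (collagen IV, laminins, nidogens and perlecan), small proteoglycans that bind collagen fibrils, and fibronectin, much of which comes from hepatocytes. Enzymes cut the matrix (matrix metalloproteinases) or crosslink it (lysyl oxidases), and the tissue inhibitors of metalloproteinases (TIMPs) restrain the former.

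Depth was roughly estimated at 18940000 to 19840000 reads per library, and 15900 to 16404 gene rows were listed in each, the fewest in celastrol replicate 3. Levels are FPKM (sequenced fragments for each kilobase of a gene, relative to the library size). Of the 40 genes, 39 were listed in every library and Mmp13 was not listed in celastrol replicate 1. With a minimum of 1 FPKM in at least 3 libraries 23 of them were tested and 17 were not. The tissue label was checked against 8 hepatocyte markers, all of which passed this minimum. Of the 8, only Alb (albumin) was called, and it carried most of their summed level, which was 41593 to 54144 FPKM under ANIT and 15009 to 21952 FPKM with celastrol. Without Alb, left out after the values were seen, the sums were 12062 to 15488 and 9668 to 12478 FPKM, and Hnf4a, a hepatocyte transcription factor, had 190 ± 13.6 and 205 ± 13.9 FPKM (n = 3 per group, SD). In whole liver, fewer cells of a type and less RNA per cell cannot be told apart.

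**Figure D1:**
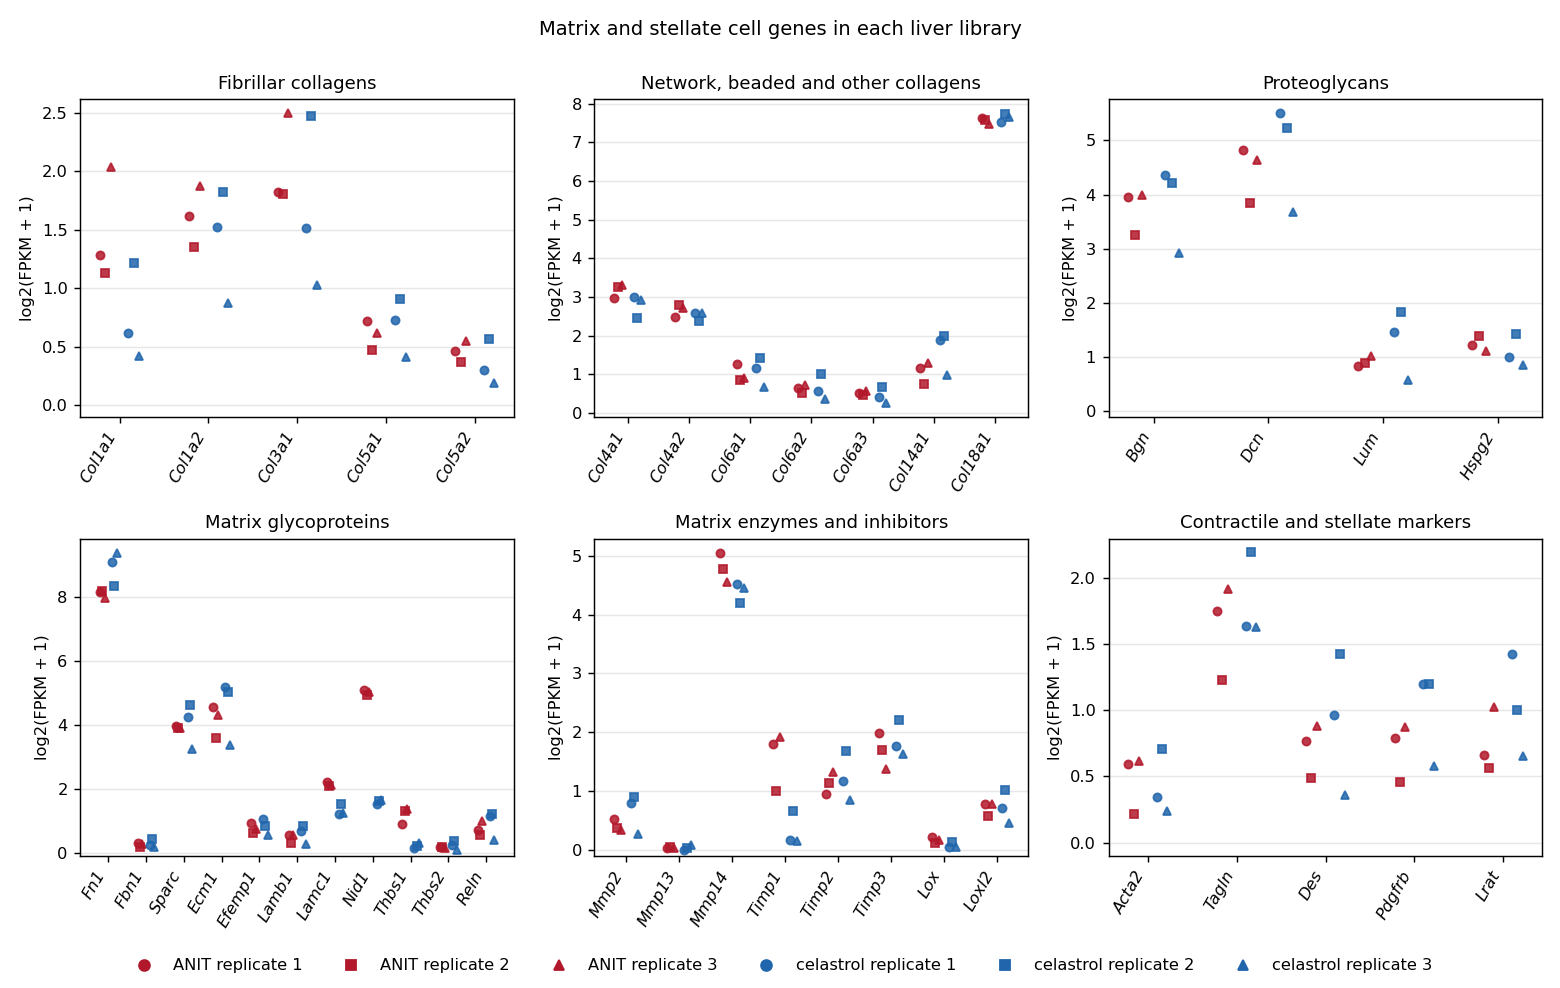
Level of each of the 40 genes in each library, as log2(FPKM + 1), in panels by class, each with its own vertical scale. Red symbols are the 3 ANIT libraries and blue symbols the 3 celastrol libraries, with the symbol shape giving the replicate number. The groups are separate for 6 genes (Nid1, Lamc1, Timp1, Thbs1, Mmp14 and Fn1), and celastrol replicate 3 (blue triangles) is the lowest celastrol library for most genes.

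Of the 23 genes tested, 3 fell with celastrol and 0 rose by limma on log2(FPKM + 1) at a Benjamini-Hochberg adjusted p of 0.05 over all genes tested. The 3 that fell were Nid1 and Lamc1, both of the basement membrane, and Timp1, a metalloproteinase inhibitor. Across all 10593 genes tested, 25.0% were called, 4.41% higher and 20.6% lower, so 3 lower genes of 23 is no larger a share than among genes in general. At an unadjusted limma p under 0.05 there were 1 higher gene (Fn1) and 6 lower genes. The shares of all genes at this looser threshold were not counted, and are at least the 4.41% higher and 20.6% lower given above. The median log2 fold change was 0.07 over the 23 genes and -0.17 over all genes tested, with 13 of the 23 values above 0 and 10 below. Median-ratio scaling placed these medians at 0.20 and 0.00, and rescaling to TPM placed them at -0.02 and -0.30. Groups were fully separate for 5 of the 23 genes (Nid1, Lamc1, Timp1, Mmp14 and Fn1) and for 44.9% of all genes tested. With the genes under the minimum included this was 6 of 40 (Thbs1 added) and 31.5% of all genes listed.

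**Figure D2:**
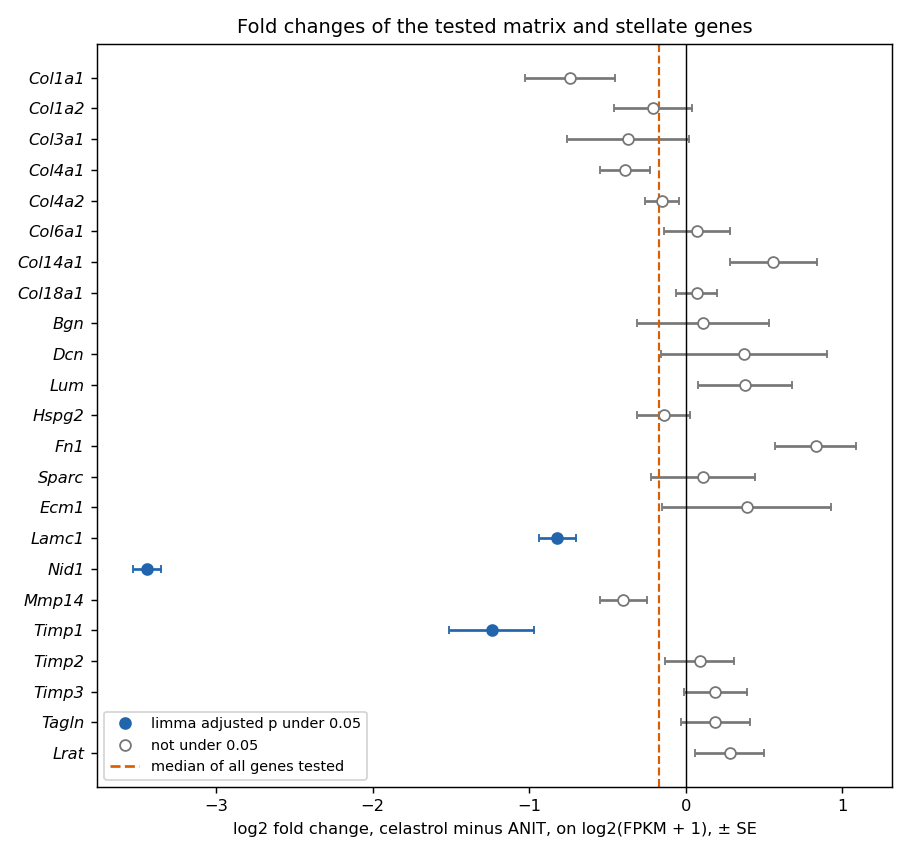
Log2 fold change of each of the 23 tested genes, celastrol minus ANIT on log2(FPKM + 1), with the standard error as bars. Filled blue points passed the limma adjusted p of 0.05 and open points did not, and the dashed line is the median of all genes tested (-0.17). Nid1 stands at -3.44, far from the other genes, and most other points lie within 1 of 0.

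The promoters of Nid1 and Timp1, the called genes with an entry in the RefSeq promoter table (build GRCm38.p6), are shown because their transcripts changed furthest among the tested genes. Each sequence runs 5′ to 3′ on the gene's own strand, up to the base before the first annotated exon. The Nid1 sequence spans chr13:13437352-13437550 and the Timp1 sequence spans chrX:20869916-20870165, both on the plus strand. Capitals mark GGAATG, the core letters of the element recognised by TEAD factors.
Nid1: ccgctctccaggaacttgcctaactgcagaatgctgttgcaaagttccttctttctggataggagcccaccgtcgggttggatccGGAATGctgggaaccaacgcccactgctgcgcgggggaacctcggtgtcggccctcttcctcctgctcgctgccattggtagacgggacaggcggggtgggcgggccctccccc
Timp1: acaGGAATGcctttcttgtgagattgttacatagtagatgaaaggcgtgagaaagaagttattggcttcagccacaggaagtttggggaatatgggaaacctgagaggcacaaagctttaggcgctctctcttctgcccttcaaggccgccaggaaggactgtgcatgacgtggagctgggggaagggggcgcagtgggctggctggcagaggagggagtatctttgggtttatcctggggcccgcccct
The marked letters begin 165 bases before the RefSeq start of Nid1 and 247 bases before that of Timp1. Promoters of 27 of the 40 genes were in the table, and 9 patterns were searched on both strands in windows of 250 bases before to 50 after the start. GGAATG was singled out after the matches were seen. It occurred in 7 of the 27 genes (25.9%), namely Col3a1, Col6a2, Col18a1, Nid1, Timp1, Acta2 and Lrat, and in 14.7% of all 32851 windows. Here and below a gene counts if any of its windows has a match, whereas the share of all is per window. A gene with several windows has more chances of a match, so these shares are not strictly alike. GGGCGG, the letters of a GC box, occurred in 20 of the 27 (74.1%), Nid1 and Timp1 included, against 35.7% of all windows. TATAAA occurred in 4 (14.8%), namely Col3a1, Ecm1, Thbs2 and Mmp13, against 13.6% of all windows. CAGACA occurred in 9 (33.3% against 21.0%) and TGANTCA in 4 (14.8% against 7.81%). Of the 4 genes with TGANTCA, 3 had a match with C or G as the central letter, as in the AP-1 site (5.20% of all windows). A kappa B pattern occurred in 3 (11.1% against 5.80%). The CArG box (1.63% of all windows) and GTCTAGAC (0.213%) were found in 0 of the 27. A match of letters is a description of the sequence, and binding was not measured.

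Nid1 encodes nidogen-1, which links the laminin and collagen IV networks of basement membranes, and lies at chr13:13437551-13512269 (mm10, plus strand). Its level was 33.3, 29.76 and 31.75 FPKM in ANIT replicates 1, 2 and 3, and 1.86, 2.05 and 2.13 FPKM in celastrol replicates 1, 2 and 3. The groups lay far apart and each was narrow, at 31.6 ± 1.77 FPKM under ANIT and 2.01 ± 0.139 FPKM with celastrol (n = 3 per group, SD), a 15.7-fold difference of means. The log2 fold change was -3.44 (SE 0.09, adjusted p = 3.6e-06 by limma), and the gene passed under all 13 alternative settings. Nid2, its paralog, had 1.90, 2.18 and 1.37 FPKM under ANIT and 1.15, 0.97 and 0.95 FPKM with celastrol, a log2 fold change of -0.47 (SE 0.14, adjusted p = 0.042 by limma). The Nid2 call was lost in the fit without the minimum (limma adjusted p = 0.066), with quantile normalization, and without any one of ANIT replicates 1 and 2 and celastrol replicates 1 and 3. The ratio of Nid1 to Nid2 within a library was 18.1 ± 4.79 with ANIT and 1.99 ± 0.330 with celastrol (n = 3 per group, SD), with no overlap.

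Lamc1 encodes the laminin gamma-1 chain, the laminin chain to which nidogen binds, and lies at chr1:153218922-153332786 on the minus strand. It had 3.6, 3.28 and 3.34 FPKM under ANIT and 1.33, 1.87 and 1.34 FPKM with celastrol. All 3 celastrol libraries were below all 3 ANIT libraries, with means of 3.41 ± 0.170 and 1.51 ± 0.309 FPKM (n = 3 per group, SD). The log2 fold change was -0.82 (SE 0.12, adjusted p = 0.0036 by limma), and it too passed under all 13 alternatives. Lamb1, the beta-1 chain, stayed below the minimum, with 0.47, 0.22 and 0.48 FPKM in the ANIT group and 0.61, 0.78 and 0.2 FPKM in the celastrol group, which overlapped.

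The other basement membrane genes of the 40 did not pass. Col4a1 and Col4a2 encode the chains of the common collagen IV molecule, and their starts lie 21 bases apart on opposite strands of chromosome 8. Col4a1 had 6.85, 8.58 and 8.85 FPKM under ANIT and 6.92, 4.53 and 6.54 FPKM with celastrol, a log2 fold change of -0.39 (SE 0.16, adjusted p = 0.11 by limma), and rescaling to TPM brought it past the threshold (-0.53, limma adjusted p = 0.040). Col4a2 had 4.62, 5.88 and 5.58 FPKM against 5.03, 4.21 and 4.97 FPKM, and its groups overlapped. Hspg2, which encodes the heparan sulfate proteoglycan perlecan, ranged from 1.15 to 1.63 FPKM under ANIT and from 0.82 to 1.69 FPKM with celastrol. Col18a1, whose product carries endostatin at its end, was the most abundant of the collagens listed here, at 187 ± 10.2 FPKM under ANIT and 197 ± 14.8 FPKM with celastrol (n = 3 per group, SD). Its 6 libraries spanned only 175.9 to 211.55 FPKM. Nid1 relative to Col4a1 within a library was 4.86, 3.47 and 3.59 with ANIT and 0.269, 0.453 and 0.326 with celastrol, whereas the ratio of Lamc1 to Col4a1 overlapped between the groups.

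Timp1 encodes a secreted inhibitor of metalloproteinases that is induced in injured liver, and lies at chrX:20870166-20874735 on the plus strand, inside the span of Syn1 on the opposite strand. It had 2.49, 1.0 and 2.77 FPKM under ANIT and 0.13, 0.58 and 0.11 FPKM with celastrol. These values stand for about 42, 17 and 49 reads against about 2, 10 and 2 reads, from the estimated depth and the GENCODE exon length. The highest celastrol library lay below the lowest ANIT library, and the means of 2.09 ± 0.951 and 0.273 ± 0.266 FPKM (n = 3 per group, SD) differed 7.63-fold. The log2 fold change was -1.24 (SE 0.27, adjusted p = 0.016 by limma). The call was lost without ANIT replicate 1 (limma adjusted p = 0.052), without celastrol replicate 1 (0.065), without celastrol replicate 3 (0.054) and with the replicate number as a block (0.053). Syn1 itself was listed at 0.03 to 0.25 FPKM.

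Of the other inhibitors, Timp2, which also takes part in activating the Mmp2 protein, had 0.94, 1.21 and 1.49 FPKM under ANIT and 1.25, 2.21 and 0.8 FPKM with celastrol. Timp3, which binds to the matrix, had 2.98, 2.24 and 1.58 FPKM against 2.4, 3.64 and 2.11 FPKM. Both overlapped between the groups. The ratio of Timp1 to Timp2 was 2.65, 0.826 and 1.86 with ANIT and 0.104, 0.262 and 0.137 with celastrol, without overlap. Mmp14, a membrane-bound metalloproteinase that cleaves collagen and activates Mmp2, was the most abundant enzyme of the set. It had 31.9, 26.34 and 22.49 FPKM under ANIT and 22.01, 17.34 and 20.92 FPKM with celastrol. The lowest ANIT library lay just above the highest celastrol library, and the log2 fold change of -0.40 (SE 0.15, adjusted p = 0.097 by limma) did not pass, except after rescaling to TPM (-0.53, limma adjusted p = 0.032).

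The remaining enzymes were low. Mmp2, a gelatinase of mesenchymal cells, had 0.44, 0.3 and 0.27 FPKM under ANIT and 0.73, 0.86 and 0.2 FPKM with celastrol. Mmp13, the main interstitial collagenase of rodents, was at or below 0.06 FPKM in every library. Lox, which crosslinks collagen and elastin, had 0.17, 0.09 and 0.13 FPKM against 0.03, 0.1 and 0.04 FPKM, and Loxl2, a related oxidase, had 0.71, 0.49 and 0.72 FPKM against 0.64, 1.02 and 0.38 FPKM. None of these 4 passed in the limma fit without the minimum, and their groups overlapped.

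The 5 fibrillar collagen genes of the 40, which encode the bulk of scar matrix, were at low levels in both groups. Col1a1, the alpha-1 chain of collagen I, had 1.44, 1.19 and 3.11 FPKM under ANIT and 0.53, 1.32 and 0.34 FPKM with celastrol. The groups overlapped through celastrol replicate 2, and the log2 fold change was -0.74 (SE 0.29, adjusted p = 0.11 by limma). Leaving out 1 library at a time gave -0.97 to -0.46, and Col1a1 passed only without celastrol replicate 2 (-0.97, limma adjusted p = 0.041). Col1a2, the alpha-2 chain, had 2.07, 1.56 and 2.66 FPKM against 1.88, 2.55 and 0.83 FPKM. Col3a1, the collagen III chain, had 2.54, 2.51 and 4.66 FPKM against 1.86, 4.57 and 1.04 FPKM. In both genes celastrol replicate 2 lay inside the ANIT range while celastrol replicate 3 lay below it. Celastrol replicate 1 lay inside the ANIT range for Col1a2 and below it for Col3a1. Col5a1 and Col5a2, which encode chains of the collagen V that starts fibrils, ranged from 0.33 to 0.88 and from 0.14 to 0.48 FPKM over the 6 libraries.

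Among the remaining collagens, Col6a1, a chain of the beaded filaments of collagen VI, ranged from 0.81 to 1.42 FPKM under ANIT and from 0.59 to 1.68 FPKM with celastrol. Col6a2 had 0.57, 0.43 and 0.65 FPKM under ANIT and 0.47, 1.02 and 0.28 FPKM with celastrol, and Col6a3 had 0.43, 0.38 and 0.49 FPKM against 0.34, 0.6 and 0.19 FPKM. Col14a1, a collagen that associates with fibrils, had 1.22, 0.69 and 1.43 FPKM under ANIT and 2.7, 2.95 and 0.99 FPKM with celastrol. Celastrol replicate 3 alone lay within the ANIT range, and the log2 fold change was 0.56 (SE 0.28, adjusted p = 0.18 by limma). Leaving out 1 library at a time gave 0.38 to 0.87, and Col14a1 passed only without celastrol replicate 3 (0.87, limma adjusted p = 0.021).

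The small proteoglycans varied widely within groups. Dcn encodes decorin, a small proteoglycan that binds collagen fibrils and TGF-beta, and it had 27.29, 13.3 and 23.72 FPKM under ANIT and 44.45, 36.41 and 11.74 FPKM with celastrol. Bgn, its relative biglycan, had 14.4, 8.52 and 14.87 FPKM against 19.66, 17.45 and 6.62 FPKM. In both genes the lowest library of all was celastrol replicate 3 and the next lowest was ANIT replicate 2. Lum, lumican, had 0.78, 0.85 and 1.03 FPKM against 1.77, 2.57 and 0.49 FPKM, a log2 fold change of 0.38 (SE 0.30, adjusted p = 0.38 by limma). Leaving out 1 library at a time gave 0.11 to 0.74, and Lum passed only without celastrol replicate 3 (0.74, limma adjusted p = 0.023).

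Among the glycoproteins, Fn1 (fibronectin) was the most abundant gene of the 40, with 286.96, 288.48 and 248.53 FPKM in the ANIT libraries and 542.75, 323.51 and 657.81 FPKM in the celastrol libraries. Every celastrol library was above every ANIT library, but celastrol replicate 2 was close to the ANIT range. The log2 fold change was 0.83 (SE 0.26, adjusted p = 0.051 by limma). Leaving out 1 library at a time gave 0.61 to 1.12, and Fn1 passed only without celastrol replicate 2 (1.12, limma adjusted p = 0.0027). Sparc, which encodes a collagen-binding matricellular protein, had 14.7, 14.05 and 13.82 FPKM against 18.02, 23.64 and 8.48 FPKM. Its ANIT values were tight and its celastrol values lay on both sides of them. Ecm1, extracellular matrix protein 1, had 22.4, 11 and 18.75 FPKM under ANIT and 35.62, 31.8 and 9.38 FPKM with celastrol.

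Thbs1 encodes thrombospondin-1, a glycoprotein that can activate latent TGF-beta, at chr2:118111876-118127133 on the plus strand. It had 0.84, 1.45 and 1.57 FPKM under ANIT and 0.1, 0.16 and 0.22 FPKM with celastrol, or about 97, 169 and 189 reads against 12, 19 and 26. It missed the minimum because only 2 libraries reached 1 FPKM, and its groups lay far apart, with an 8.04-fold difference of means. In the limma fit without the minimum its log2 fold change was -0.97 (SE 0.14) with an adjusted p of 0.010, where 9.18% of 18253 genes were called lower and 2.26% higher, and the call was lost without celastrol replicate 1 (limma adjusted p = 0.060). It was the only one of the 17 genes under the minimum to pass there, the other 16 having limma adjusted p from 0.17 to 1.0. Thbs2, its relative, had 0.13, 0.14 and 0.11 FPKM against 0.19, 0.29 and 0.05 FPKM. Fbn1, the microfibril protein fibrillin-1, ranged from 0.12 to 0.34 FPKM and Efemp1, a fibulin, from 0.45 to 1.07 FPKM over the 6 libraries.

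The contractile and stellate markers were low in both groups and none passed. Acta2, smooth muscle actin and the usual marker of the activated stellate cell, had 0.51, 0.16 and 0.53 FPKM under ANIT and 0.27, 0.63 and 0.18 FPKM with celastrol. Tagln, an actin-binding protein of smooth muscle, had 2.36, 1.34 and 2.78 FPKM against 2.11, 3.59 and 2.1 FPKM. Des, the intermediate filament desmin, had 0.7, 0.4 and 0.84 FPKM against 0.95, 1.68 and 0.28 FPKM. In these 3 genes ANIT replicate 2 was the lowest ANIT library and celastrol replicate 2 the highest celastrol library. Pdgfrb, the PDGF receptor of stellate cells and pericytes, had 0.73, 0.37 and 0.83 FPKM against 1.3, 1.29 and 0.49 FPKM. Lrat, the enzyme that esterifies vitamin A for storage, had 0.58, 0.48 and 1.03 FPKM against 1.69, 1.0 and 0.57 FPKM. Reln, reelin, a glycoprotein made by stellate cells in liver, had 0.63, 0.48 and 0.98 FPKM against 1.19, 1.31 and 0.32 FPKM. For these last 3 genes celastrol replicate 1 was above every ANIT library and celastrol replicate 3 was the lowest of its group. Celastrol replicate 2 was above every ANIT library for Pdgfrb and Reln but not for Lrat, and the groups overlapped.

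The same 2 libraries were low for much of the set. ANIT replicate 2 was the lowest of its group for 26 of the 40 genes (65.0%), against 19.8% of all genes tested, and celastrol replicate 3 was the lowest of its group for 30 (75.0%), against 47.5%. After median-ratio scaling, an alternative chosen after the data were seen, the counts were 27 (67.5%, all genes 29.9%) and 29 (72.5%, all genes 33.3%). Of 16 quiescent stellate markers outside the 40 genes, ANIT replicate 2 was the lowest of its group for 13 and celastrol replicate 3 for 14, and none of the 16 was at 0 in any library. Their summed level was 47.1, 23.8 and 36.4 FPKM under ANIT and 41.0, 40.1 and 19.5 FPKM with celastrol. Of 12 sinusoidal endothelial markers, ANIT replicate 2 was the highest of its group for 12 (40.1% of all genes tested). Celastrol replicate 3 was the lowest of its group for 10 of these markers (47.5% of all genes tested). Of 11 Kupffer cell and macrophage markers, ANIT replicate 1 was the lowest and ANIT replicate 3 the highest of the group for 11, and celastrol replicate 3 was the lowest for 10. Of all genes tested, ANIT replicate 1 was the lowest for 34.8% and ANIT replicate 3 the highest for 23.7%. Low values in celastrol replicate 3 were thus shared by the stellate, endothelial and Kupffer cell lists, and those in ANIT replicate 2 by the stellate list alone of these 3. The part of stellate cell content in the differences between libraries was not tested.

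**Figure D3:**
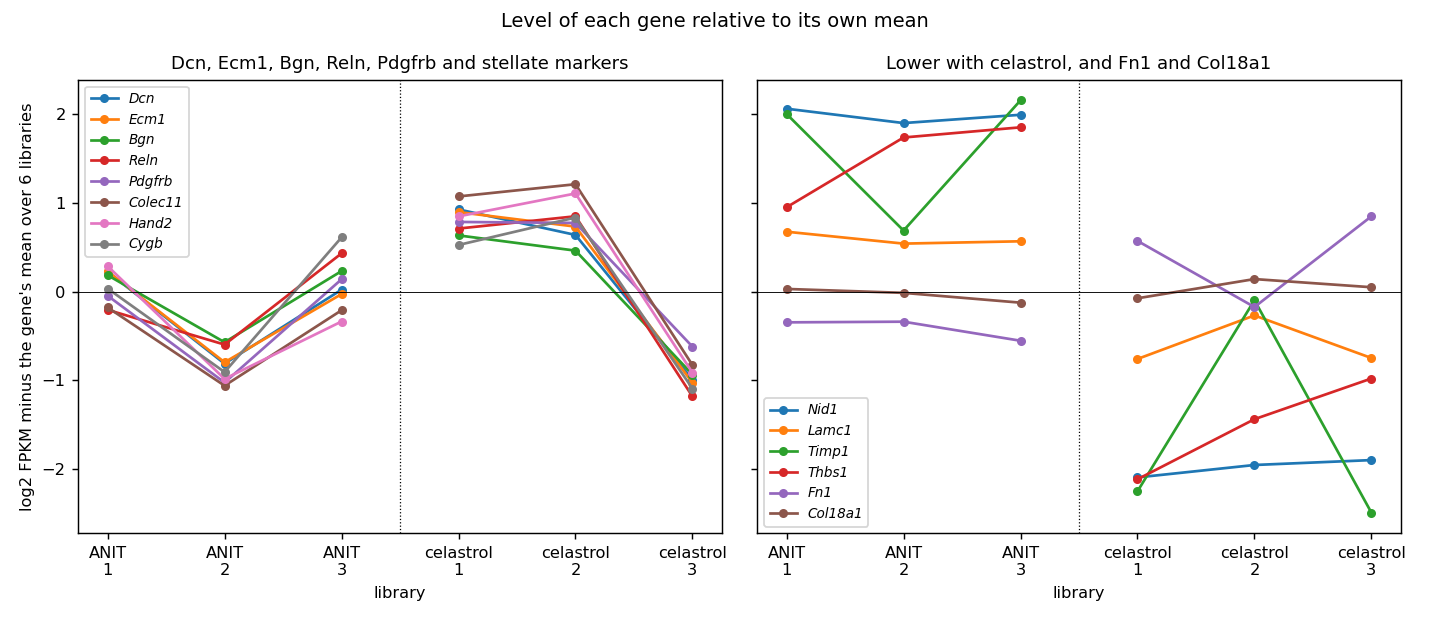
Log2 FPKM of single genes in each library minus the gene's mean over the 6 libraries, with lines joining the values of a gene (replicate numbers have no order). The left panel holds genes chosen after their values were seen for moving together, which are low in ANIT replicate 2 and celastrol replicate 3, and the right panel holds the genes that fell with celastrol (Thbs1 in the fit without the minimum), with Fn1 and Col18a1.

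Ratios within a library remove what scales all of these genes alike. Dcn was taken as the reference, and 22 ratios were computed, 15 of them to Dcn, all chosen after the values were seen. Ecm1 relative to Dcn was 0.821, 0.827 and 0.790 with ANIT and 0.801, 0.873 and 0.799 with celastrol, so it varied 1.10-fold over the 6 libraries while Dcn itself varied 3.79-fold. Pdgfrb and Reln relative to Dcn varied 1.56-fold and 1.79-fold, with overlapping groups. Of the 15 ratios to Dcn, 4 did not overlap between the groups (Col1a1, Col1a2, Col14a1 and Timp1), where 5.10% of all genes tested did not overlap by the same measure. Without division 44.9% of all genes tested were separate, and dividing by Dcn adds its own spread within groups to genes that do not follow it. The 5.10% is therefore no baseline for genes chosen because they follow Dcn, and no enrichment can be read from it. Timp1 was separate without division as well. Col1a1 relative to Dcn was 0.0528, 0.0895 and 0.131 with ANIT and 0.0119, 0.0363 and 0.0290 with celastrol. Col1a2 relative to Dcn was 0.102 ± 0.0226 against 0.0610 ± 0.0162, and Col14a1 relative to Dcn was 0.0523 ± 0.00780 against 0.0754 ± 0.0128 (n = 3 per group, SD). Timp1 relative to Dcn was 0.0944 ± 0.0210 against 0.00941 ± 0.00650 (n = 3 per group, SD). Col1a1 relative to Col1a2, its partner chain, was 0.696, 0.763 and 1.17 with ANIT and 0.282, 0.518 and 0.410 with celastrol. Each ratio without overlap had a two-sided exact permutation p of 0.1, the smallest that 3 against 3 libraries allow, and 0.244 after Benjamini-Hochberg adjustment over the 22 ratios.

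**Figure D4:**
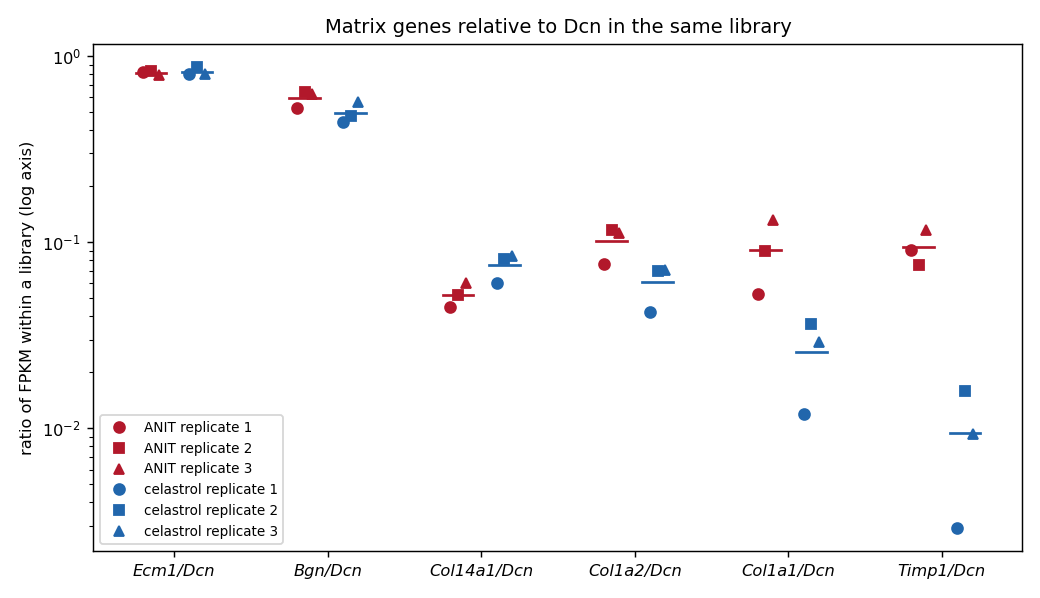
FPKM of 6 genes divided by the FPKM of Dcn in the same library, on a log axis, with 3 ANIT libraries in red, 3 celastrol libraries in blue and group means as lines. Ecm1 keeps a ratio of 0.790 to 0.873 in the 6 libraries, while the groups are separate for Col14a1, Col1a2, Col1a1 and Timp1.

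Other genes of the matrix pathway were read from lists of textbook genes. Of 17 tested ligands, receptors and targets of TGF-beta and PDGF signalling, the signals that activate stellate cells, 7 fell and 1 rose (Pdgfc). Among those that fell were Pdgfa, Cyr61, Tgfbr2, Smad2, Tgfbr1 and Smad7. Of all genes tested, 20.6% were lower and 4.41% higher. Pdgfa, a PDGF ligand, fell from 9.55 ± 2.19 to 2.28 ± 0.127 FPKM (n = 3 per group, SD), a log2 fold change of -1.66 (SE 0.15, adjusted p = 0.00083 by limma). Cyr61, a matricellular protein, fell from 3.36 ± 0.250 to 0.760 ± 0.260 FPKM (n = 3 per group, SD), a log2 fold change of -1.32 (SE 0.13, adjusted p = 0.0011 by limma). Of the others, named after their values were seen, Tgfbr2, the type II TGF-beta receptor, had 11.31, 6.87 and 10.3 FPKM against 2.05, 2.8 and 2.39 FPKM. Pdgfc, another PDGF ligand, had 0.33, 0.77 and 0.52 FPKM against 1.62, 1.81 and 1.54 FPKM. Among the tested genes of this list that were not called, Tgfb1 had 2.58 ± 0.900 and 2.62 ± 0.633 FPKM (n = 3 per group, SD). Ctgf had 3.10 ± 0.0462 and 2.71 ± 0.817 FPKM, and Smad3 had 2.76 ± 0.307 and 2.65 ± 0.326 FPKM (n = 3 per group, SD). The count of lower genes in this list was 5 to 8 over the alternatives.

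Of 13 tested matrix receptors, 6 fell (Sdc1, Itgb1, Itgav, Dag1, Ddr1 and Itgb5) and 1 rose (Sdc2), where 20.6% of all genes tested were lower and 4.41% higher. The Sdc2 call was lost in the fit without the minimum (limma adjusted p = 0.071). Sdc1, a cell surface heparan sulfate proteoglycan, fell from 120 ± 22.6 to 63.3 ± 3.27 FPKM (n = 3 per group, SD), and Itgb1, the beta-1 integrin chain, fell from 42.5 ± 3.87 to 27.5 ± 3.48 FPKM (n = 3 per group, SD). The count of 6 was 3 with median-ratio scaling, 2 with quantile normalization, 2 without ANIT replicate 2 and 1 without celastrol replicate 1. Of 13 tested genes of collagen folding and processing, 2 fell (Colgalt1 and P4hb) and 1 rose. The gene that rose was Bmp1, the procollagen C-proteinase, from 27.8 ± 3.16 to 50.9 ± 2.78 FPKM (n = 3 per group, SD), a log2 fold change of 0.86 (SE 0.12, adjusted p = 0.0039 by limma). The 2 falls in this list became 0 with median-ratio scaling and 0 without ANIT replicate 2.

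Of 10 tested other proteases and inhibitors, 3 fell (Adamts1, Mmp19 and Plaur) and 0 rose by limma, also 0 at an unadjusted p under 0.05. Among all genes tested 20.6% were lower and 4.41% higher, so a few falls in a list of this size are common. Adamts1, a secreted protease that cleaves proteoglycans, fell from 3.21 ± 0.359 to 0.970 ± 0.229 FPKM (n = 3 per group, SD), and Mmp19 fell from 24.5 ± 3.97 to 14.6 ± 2.12 FPKM (n = 3 per group, SD). This count was 1 with quantile normalization, and leaving out ANIT replicate 2 gave 1, as did leaving out celastrol replicate 1. Of 10 tested other structural genes, 2 rose (Vtn and Col15a1) and 3 fell (Agrn, Col5a3 and Nid2), against the same shares of all genes. Vtn, which encodes the plasma and matrix protein vitronectin, rose from 1429 ± 57.0 to 2299 ± 70.1 FPKM (n = 3 per group, SD), and Col15a1, a basement membrane collagen, rose from 0.987 ± 0.2 to 2.91 ± 1.06 FPKM (n = 3 per group, SD). Col5a3, a collagen V chain outside the 40 genes and named after its values were seen, had 21.08, 24.01 and 14.95 FPKM against 6.05, 11.8 and 3.39 FPKM, well above Col5a1 and Col5a2 (log2 fold change -1.49, SE 0.40, adjusted p = 0.041 by limma). The Col5a3 call was lost in the fit without the minimum (limma adjusted p = 0.063). The 3 falls became 1 with median-ratio scaling, 0 with quantile normalization and 0 without any one of ANIT replicates 1 and 2 and celastrol replicates 1 and 3, and the 2 rises became 0 without ANIT replicate 2 or celastrol replicate 1.

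Markers of other cells are given beside these values. Of 8 tested quiescent stellate markers, 3 fell, Ank3 and Bco1 among them, and 0 rose by limma, where 20.6% of all genes tested were lower. The 3 became 0 under median-ratio scaling, under quantile normalization and without celastrol replicate 1. At an unadjusted limma p under 0.05, 2 were higher, where at least 4.41% of all genes tested were. The median log2 fold change of the 8 was 0.25, with 5 above 0. Ank3, an ankyrin, had 4.38, 2.89 and 3.41 FPKM under ANIT and 1.95, 1.77 and 2.1 FPKM with celastrol. Of those with values above 0, named after they were seen, Vipr1, a receptor for vasoactive intestinal peptide, had 2.88, 1.19 and 1.3 FPKM against 5.75, 5.84 and 2.19 FPKM (adjusted p = 0.097 by limma). Colec11, a collectin, had 4.52, 2.45 and 4.42 FPKM against 10.77, 11.85 and 2.88 FPKM (adjusted p = 0.26 by limma), and Ednrb, an endothelin receptor, had 0.77, 0.77 and 1.05 FPKM against 1.61, 1.54 and 1.08 FPKM (adjusted p = 0.082 by limma). Of 8 tested smooth muscle and myofibroblast genes, 2 fell (Tpm1 and Cald1), where 20.6% of all genes tested were lower, and 1 rose (Mylk). The Mylk call was lost in the fit without the minimum (limma adjusted p = 0.064). The summed level over 14 genes was 154 to 159 FPKM under ANIT and 89.6 to 105 FPKM with celastrol, most of it from Tpm1 and Cald1. Without this pair, left out after the values were seen, the other 12 genes summed to 25.9 to 30.6 and 25.0 to 39.3 FPKM. Myl9, a myosin light chain of smooth muscle, had 0.773 ± 0.445 and 1.08 ± 0.478 FPKM (n = 3 per group, SD), and Cnn1, Actg2 and Lmod1, markers of differentiated smooth muscle, were at 0 in at least 1 library. Tpm1, a tropomyosin that is also expressed outside muscle, fell from 54.7 ± 2.89 to 21.3 ± 0.593 FPKM (n = 3 per group, SD), a log2 fold change of -1.32 (SE 0.10, adjusted p = 0.00047 by limma).

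Of 10 mesothelial and portal fibroblast markers 2 were tested, of which Gas6, a secreted ligand of TAM receptors, rose from 15.5 ± 4.72 to 47.7 ± 19.0 FPKM (n = 3 per group, SD) and Krt19, a keratin of bile duct cells and mesothelium, fell from 1.46 ± 0.0764 to 0.447 ± 0.309 FPKM (n = 3 per group, SD). The Gas6 call was lost without ANIT replicate 1 (limma adjusted p = 0.052), ANIT replicate 2 (0.060) or celastrol replicate 3 (0.053), and the Krt19 call without ANIT replicate 2 (0.054) or celastrol replicate 1 (0.057). The summed level over the 10 genes, 17.2 to 24.1 FPKM under ANIT and 34.5 to 70.6 FPKM with celastrol, was mostly Gas6, and the other 9 genes summed to 3.26 to 5.13 and 1.31 to 3.43 FPKM. Among them Upk1b and Wt1, of mesothelium, were at 0 in at least 1 library. Of 11 tested sinusoidal endothelial markers, 1 rose (Stab2, a scavenger receptor, lost without celastrol replicate 1 at a limma adjusted p of 0.057) and 0 fell, with sums of 48.5 to 76.2 and 61.7 to 113 FPKM. The next smallest p in that list was that of Kdr, a VEGF receptor, with 1.54 ± 0.595 and 3.34 ± 1.37 FPKM (n = 3 per group, SD). Of 11 tested Kupffer cell and macrophage markers 0 passed by limma, 3 were higher at an unadjusted p under 0.05, and median-ratio scaling called 2 higher. Their sums were 161 to 377 and 281 to 394 FPKM, and C1qa, a complement chain, had 39.5 ± 8.67 and 59.0 ± 7.67 FPKM (n = 3 per group, SD). Of 4 tested cholangiocyte markers, 1 fell (Krt19), with sums of 45.4 to 53.7 and 22.3 to 51.6 FPKM, and Spp1, osteopontin, had 35.7 ± 3.67 and 28.3 ± 14.5 FPKM (n = 3 per group, SD). Of 8 tested hepatocyte markers, 1 fell (Alb, albumin, from 32513 ± 5321 to 6985 ± 2658 FPKM, SD, n = 3 per group). These counts stand beside 20.6% of all genes tested that were lower and 4.41% that were higher. For the unadjusted count the share of all genes is at least the latter and was not counted. The part of these cell types in the differences of the matrix genes was not tested.

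Other genes of the annotation overlap 18 of the 40 genes on the opposite strand, and for 8 of these the overlapping gene was listed, among them Col4a1 with Col4a2, Timp1 with Syn1, Timp3 with Syn3, Tagln with Pcsk7 and Col18a1 with Slc19a1. These are overlaps of whole gene spans, introns included, and Col4a1 and Col4a2 share only chr8:11312805-11312826. Without a stated strand setting, reads from the shared stretches of such pairs cannot be told apart, and the overlap of their exons was not measured.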

How the data were processed

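Total RNA of frozen liver was sequenced. The deposited values are FPKM per gene symbol, 1 table per library, per the file headers. Reads were aligned and counted with HISAT2 and featureCounts on mm10 (versions not stated), per the submitters' processing notes. For the annotation, the gene lengths and the strand, what was used is not given in the sources used here.

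Symbols absent from a library's table were counted as 0, and 2 symbols with more than 1 row were left out. Depth was estimated from the spacing of low FPKM values, and approximate reads from that depth and GENCODE M21 exon lengths. At the estimated depth, 51.3% (celastrol replicate 3) to 59.4% (ANIT replicate 1) of the values used lay within 0.2 of a whole read, so the depth is uncertain. Groups came from the library titles. Genes that reached 1 FPKM in 3 or more libraries (10593) were compared between 3 ANIT and 3 celastrol libraries on log2(FPKM + 1) by limma (version 3.58.1, under R 4.3.3, trend, robust variance, group as the only term) at a Benjamini-Hochberg adjusted p of 0.05. Fold changes on this scale understate the change of low genes. The fit was tested on simulated data. Ratios were compared with two-sided exact permutation tests. The 13 alternatives were a pseudocount of 0.1, no minimum, median-ratio scaling, quantile normalization, rescaling to TPM, non-robust variance, a replicate block and leaving out each library.

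The 40 genes and the other lists were chosen with earlier results of these data known. Named genes were the 40, and the 2 tested genes with the smallest p of each list, of which 1 is not reported here. Others named beside small counts, and the ratios, were chosen after their values were seen.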

Additional observations from a re-analysis of the deposited data

How the results depend on the processing

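Nid1 and Lamc1 were called lower under all 13 alternatives, with log2 fold changes from -3.91 to -3.23 and from -1.14 to -0.67. Timp1 missed the threshold in 4 of 13 (limma adjusted p up to 0.065), including the replicate block (0.053), and Thbs1 in 1 of the 12 fits without the minimum. The count of all genes called (2652) was 4202 after rescaling to TPM and 1127 to 3841 when 1 library was left out. The split of 467 higher and 2185 lower genes was 889 and 1053 with median-ratio scaling and 873 and 952 with quantile normalization. Of the 23 genes tested, 5 were lower after rescaling to TPM (Nid1, Lamc1, Timp1, Col4a1 and Mmp14). That setting called 3813 of all 10593 genes tested lower, with a median log2 fold change of -0.30. When 1 library was left out, 0 to 2 of the 23 were higher, where 218 to 515 of all genes tested were.

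Signs turned for genes that were not called. Col4a2 had a log2 fold change of 0.03 with median-ratio scaling and 0.03 with quantile normalization. After rescaling to TPM Col6a1 had -0.00, Col18a1 -0.05, Bgn -0.02 and Sparc -0.01. When 1 library was left out, the log2 fold change ranged from -0.42 to 0.06 for Col1a2, -0.10 to 0.28 for Col6a1, -0.16 to 0.56 for Bgn, -0.18 to 0.51 for Sparc, -0.13 to 0.29 for Timp2, -0.01 to 0.34 for Tagln and -0.81 to 0.02 for Spp1. The cause was not tested.

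Replicate numbers are shared between the groups, but deviations of same-numbered libraries correlated at 0.15, 0.23 and -0.09, so the numbers were not taken to pair the libraries. With the replicate block 2585 genes were called, 479 higher and 2106 lower, and of the 23 genes tested 2 were lower and 0 higher. Genes well under 1 FPKM rest on few reads, and the absence of a call there was not a sign of equal levels.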
